A study of Mus musculus with 11 samples.

Results

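Collagen and fibronectin form the scaffold of the lung interstitium and basement membranes, and platelet-derived growth factors (PDGF) act on the fibroblasts and pericytes that build it. The 6 genes described here are Col1a1, Col3a1, Col4a1, Fn1, Pdgfrb and Pdgfc, taken by name from the 770 genes measured in lungs of mice with resected mammary tumors. The 11 lungs came from 6 mice given αChemR23 (labelled antiChemR23; mice 9, 10, 13, 14, 15 and 16), an agonist antibody against the chemerin and resolvin receptor ChemR23, and 5 mice given the isotype control hIgG1 (mice 3, 4, 6, 7 and 8). All were BALB/c females injected at 8 weeks of age into the mammary fat pad with 4T1-luc2, a mouse mammary carcinoma line of the same strain that carries luciferase and colonizes the lung. Both groups received intraperitoneal antibody (1 mg/kg, 3 doses weekly) over 3 weeks that began on day 7 and ended on day 28, with resection of the tumor on day 13. No tumor-free lung was analysed here, so that the control lungs also came from mice that had carried a tumor. The design text gives 7 αChemR23 and 4 hIgG1 mice, whereas the sample labels, followed here, give 6 and 5. By the labels, lungs were dissociated to single cells before RNA extraction, so the values describe the RNA of the recovered cells. Lungs were taken when each mouse was euthanized, and no source used here gives the day of each mouse, so that time of collection and metastatic load cannot be told apart from treatment.

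Type I collagen (Col1a1) and type III collagen (Col3a1) assemble into the fibrils of the interstitium and are made mainly by fibroblasts. Type IV collagen (Col4a1) forms the sheet of basement membranes and is made by endothelial, epithelial and mural cells. Fibronectin (Fn1) is assembled into fibrils at the cell surface through integrins, and in mouse models it accumulates in lungs before tumor cells arrive. PDGF receptor beta (Pdgfrb) is the receptor tyrosine kinase of pericytes and many fibroblasts, and PDGF-C (Pdgfc) is a secreted ligand that is activated by proteolysis and binds PDGF receptor alpha, or beta within heterodimers.

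RNA was counted on the nCounter platform, in which color-coded probes are counted without amplification, and the authors deposited log2 normalized counts. One unit is a doubling. Each probe captures its own target with its own efficiency, so that levels are compared between mice and not between genes. An estimated 593097 to 680760 raw counts were obtained per αChemR23 lung and 590874 to 666422 per hIgG1 lung. The lowest reported value of a mouse lay between 8.85 and 16.2 normalized counts, and all 6 genes were above it in all 11 lungs. As a check of the tissue, Cxcl15, a chemokine of lung epithelium chosen after its values were seen, was at 14.29 to 14.75 log2 normalized counts in αChemR23 lungs and 14.18 to 14.66 in hIgG1 lungs. In such tissue RNA, more cells of a type and more RNA per cell cannot be told apart.

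The regions before 2 of the collagen genes are shown because these genes, as described further on, had a low correlation with each other over the 11 lungs. Whether the sequences bear on this correlation was not tested. They are RefSeq sequences of GRCm38.p6, printed 5′ to 3′ on the strand of the gene and ending at the last base before its annotated start: 250 bases at chr1:45311288-45311537 (plus strand) for Col3a1 and 187 bases at chr8:11312890-11313076 (minus strand) for Col4a1. Capitals mark matches to 3 motifs searched on both strands, the TATA box (TATAAA), the CCAAT box (CCAAT) and the GC box known to bind Sp1 (GGGCGG), which do not overlap here.
Col3a1: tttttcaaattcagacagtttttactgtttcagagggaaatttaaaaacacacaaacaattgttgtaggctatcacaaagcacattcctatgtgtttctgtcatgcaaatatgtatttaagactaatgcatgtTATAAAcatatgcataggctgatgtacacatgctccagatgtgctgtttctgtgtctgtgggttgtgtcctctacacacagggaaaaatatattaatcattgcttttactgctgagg
Col4a1: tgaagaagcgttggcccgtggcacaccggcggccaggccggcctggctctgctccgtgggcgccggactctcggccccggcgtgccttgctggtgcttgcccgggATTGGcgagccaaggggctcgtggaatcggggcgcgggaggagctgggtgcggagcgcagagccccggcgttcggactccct
The Col3a1 window had a GC content of 35.2%, against a median of 52.4% over 32851 mouse promoter windows of 250 bases. That of Col4a1 was 73.8%, against a median of 51.3% over the first 187 bases of the same windows, which need not end at a gene start. The Col3a1 window held 1 match to TATAAA, 117 bases before the start, where 12.4% of all windows held one. The Col4a1 window held 1 match to CCAAT on the opposite strand (read as ATTGG), 82 bases before the start. Of all windows, 26.2% held one in their first 187 bases. GGGCGG was found in neither. The region of Pdgfc, not shown, had a GC content of 50.8% over 250 bases and no match to the 3 motifs. Pdgfc had a lower correlation with Col4a1 (Pearson r = -0.080) than Col3a1 had. A match is a description of the letters and not evidence of a bound factor.

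Both fibrillar collagen genes had a higher mean in αChemR23 lungs, by less than the spread between mice allowed to call. Col1a1 ran from 9.60 (mouse 13) through a median of 9.82 to 10.10 (mouse 14) in αChemR23 mice. It was at 9.45, 9.45, 9.995, 9.75 and 9.50 in hIgG1 mice 3, 4, 6, 7 and 8. All 6 αChemR23 lungs lay above the hIgG1 median of 9.50, but hIgG1 mouse 6 was the second highest of the 11 lungs and the groups overlapped. The means were 9.84 ± 0.18 in αChemR23 lungs and 9.63 ± 0.24 in hIgG1 lungs (SD, n = 6 and 5), a log2 difference of 0.21 (standard error 0.12) or 1.16-fold (95% confidence interval 0.976 to 1.38), with an adjusted p of 0.495 over 657 tested genes by limma, a linear model whose spread is estimated with the help of all genes.

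Col3a1 was low and high in much the same mice as Col1a1. It ran from 11.005 (mouse 13) through a median of 11.52 to 11.72 (mouse 15) in αChemR23 mice, and was at 10.994, 10.998, 11.78, 11.30 and 11.36 in hIgG1 mice 3, 4, 6, 7 and 8. The highest of all lungs was thus a control, hIgG1 mouse 6, and 5 of 6 αChemR23 lungs lay above the hIgG1 median. Means were 11.47 ± 0.27 in αChemR23 lungs and 11.29 ± 0.32 in hIgG1 lungs (SD, n = 6 and 5), with a log2 difference of 0.19 (standard error 0.16), 1.14-fold (95% confidence interval 0.898 to 1.44), and an adjusted p of 0.693 from limma. Col3a1 was the most variable of the 6 within groups: its pooled SD of 0.30 was at or above that of 69.3% of tested genes, while a counting SD of 0.027 is given by its estimated 1987 to 3866 raw counts.

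Col4a1, of basement membranes, had the smallest difference of the 6 with all mice. Its values ran from 10.51 (mouse 15) through 10.78 to 11.005 (mouse 14) in αChemR23 mice and were 10.72, 10.43, 10.71, 10.86 and 10.64 in hIgG1 mice 3, 4, 6, 7 and 8. Only αChemR23 mice 14 and 16 exceeded the highest control, and mice 10 and 15 lay below 4 of the 5 controls. With means of 10.76 ± 0.20 in αChemR23 lungs and 10.67 ± 0.15 in hIgG1 lungs (SD, n = 6 and 5), the log2 difference was 0.09 (standard error 0.10), 1.06-fold (95% confidence interval 0.912 to 1.24), with an adjusted p of 0.801 from limma.

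Fn1 was narrow in αChemR23 lungs, from 11.62 (mouse 15) through a median of 11.74 to 11.90 (mouse 14). In hIgG1 mice 3, 4, 6, 7 and 8 it was at 11.75, 11.27, 11.58, 11.78 and 11.54. All 6 αChemR23 lungs lay above the hIgG1 median of 11.58, while controls 3 and 7 lay among the upper αChemR23 values and control 4 was the lowest of all lungs. Fn1 averaged 11.74 ± 0.10 in αChemR23 lungs and 11.59 ± 0.21 in hIgG1 lungs (SD, n = 6 and 5), a log2 difference of 0.16 (standard error 0.09), 1.12-fold (95% confidence interval 0.975 to 1.28), with an adjusted p of 0.495 from limma. Without hIgG1 mouse 4 the log2 difference of Fn1 was 0.08.

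**Figure D1:**
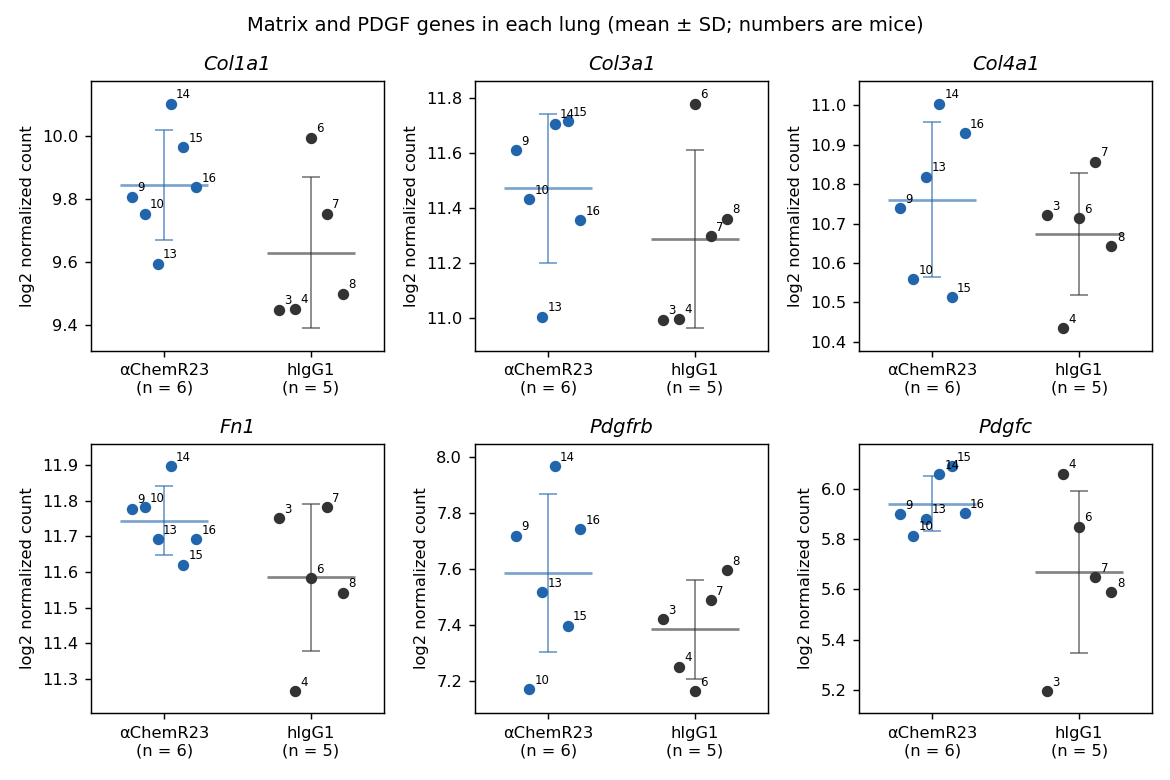
Log2 normalized counts of the 6 genes (vertical axes, each with its own range) in 6 αChemR23 lungs (blue, left) and 5 hIgG1 lungs (black, right), with group mean (line), SD (bars) and mouse numbers beside the points. The groups overlap for each gene, mouse 14 is highest for Col1a1, Col4a1, Fn1 and Pdgfrb, and hIgG1 mouse 6 is highest for Col3a1.

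Among the PDGF genes, the receptor Pdgfrb spread widely among αChemR23 lungs, from 7.17 (mouse 10) through a median of 7.62 to 7.97 (mouse 14). It was at 7.42, 7.25, 7.17, 7.49 and 7.60 in hIgG1 mice 3, 4, 6, 7 and 8. Mice 9, 14 and 16 exceeded the highest control, whereas mouse 10 was next to the lowest of the 11 lungs. The means were 7.59 ± 0.28 in αChemR23 lungs and 7.38 ± 0.18 in hIgG1 lungs (SD, n = 6 and 5), a log2 difference of 0.20 (standard error 0.14), 1.15-fold (95% confidence interval 0.934 to 1.41), with an adjusted p of 0.587 from limma.

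The ligand Pdgfc had the lowest counts of the 6 and, with all mice, the largest difference, a rank that passed to Pdgfrb without hIgG1 mouse 3 (0.21 for Pdgfrb) or mouse 8 (0.25 for both). It ran from 5.81 (mouse 10) through 5.90 to 6.09 (mouse 15) in αChemR23 mice, and was at 5.20, 6.06, 5.85, 5.65 and 5.59 in hIgG1 mice 3, 4, 6, 7 and 8. All αChemR23 lungs lay above the hIgG1 median of 5.65, but controls 4 and 6 lay within the αChemR23 range. Means were 5.94 ± 0.11 in αChemR23 lungs and 5.67 ± 0.32 in hIgG1 lungs (SD, n = 6 and 5), a log2 difference of 0.27 (standard error 0.15), 1.21-fold (95% confidence interval 0.970 to 1.51), with an adjusted p of 0.495 from limma. Pdgfc rested on an estimated 40 to 77 raw counts per lung, for which counting error alone gives an SD of 0.19, against a measured SD of 0.23 within groups. For Pdgfrb, with 141 to 289 counts, these SDs were 0.11 and 0.24, and for the collagens and Fn1 the counting SD was 0.025 to 0.048. Without hIgG1 mouse 3, the log2 difference of Pdgfc was 0.15.

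Set against the whole table, the 6 genes shared a direction without any of them passing the test. Of the 657 genes tested, 0 (0%) had an adjusted p under 0.05 by limma, and so had 0 of the 6. Before adjustment, 65 genes (9.89%) had a p under 0.05, of which 47 were higher (7.15%) and 18 lower (2.74%), and again 0 of the 6. Scaled to equal medians, the lungs gave 22 higher against 35 lower genes, and after quantile normalization 26 against 33. All 6 had a higher mean in αChemR23 lungs, which 57.4% of all tested genes had. Groups did not overlap for 7 tested genes (1.07%), none of them among the 6. The median log2 difference was 0.19 for the collagens, 0.24 for the PDGF genes and 0.028 over all tested genes. In the order of all tested genes from lowest to highest difference, the 6 lay between the 65.4th (Col4a1) and 93.3rd (Pdgfc) percentile. The confidence intervals of all 6 include 0, and their upper limits run from 1.24-fold (Col4a1) to 1.51-fold (Pdgfc).

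With each mouse left out in turn, all 6 differences stayed above 0 in 11 of 11 fits and no adjusted p passed. Without hIgG1 mouse 6, Col1a1 and Col3a1 each differed by 0.31 and were under 0.05 before adjustment, but not after it (the smallest adjusted p of any of the 6 without a mouse was 0.471 from limma). Without hIgG1 mice 3 or 4, which had the lowest values of both genes, the difference of Col3a1 was 0.11 in each case, and that of Col1a1 0.17. With quantile normalization that of Col3a1 was 0.10.

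Mouse 14 of the αChemR23 group stood highest across these genes. It ranked first of 11 lungs for Col1a1, Col4a1, Fn1 and Pdgfrb and 3 of 11 for Col3a1 and Pdgfc, with an average of 0.32 log2 units above the mean of each gene. Mouse 9 was also above the mean for all 6 genes, by 0.12 on average, and mouse 16 for 5. At the other end, hIgG1 mice 3 and 4 were above the mean for 1 gene each and averaged -0.22 and -0.23. Other mice of both groups lay between these ends, as αChemR23 mice 10 and 13 averaged -0.054 and -0.055 and hIgG1 mouse 6 averaged 0.042. Without mouse 14, the 6 differences were 0.04 (Col4a1) to 0.25 (Pdgfc).

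**Figure D2:**
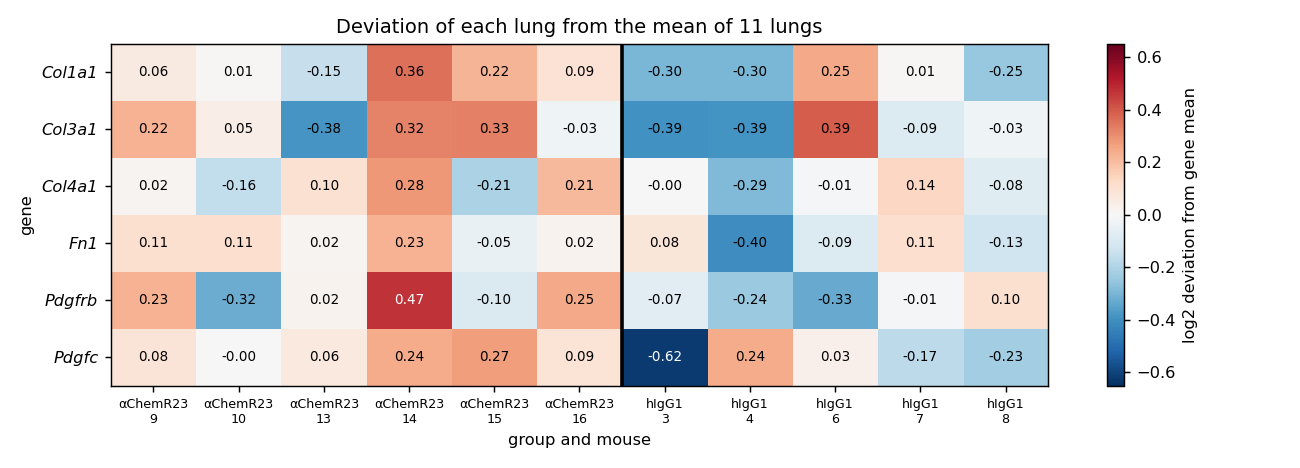
Deviation of each lung (columns, αChemR23 left of the black line, hIgG1 right) from the mean of the 11 lungs for each gene (rows), in log2 units and printed in each cell, with red above and blue below the mean. Mouse 14 is red in all 6 rows, hIgG1 mouse 6 is high for the fibrillar collagens and low for Pdgfrb, and hIgG1 mouse 4 is low for 5 genes and high for Pdgfc.

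Mouse 14 also had the lowest mean level of neutrophil markers of the 11 lungs. Of 13 neutrophil markers listed, 9 were tested, 7 of them with a lower mean in αChemR23 lungs, and their mean log2 level was 9.06 in mouse 14 and 9.85 to 10.91 in the other αChemR23 lungs, against 10.02 to 10.58 in hIgG1 lungs. Their summed level was 40116 to 176087 normalized counts in αChemR23 lungs and 82070 to 138065 in hIgG1 lungs. With the neutrophil score as a covariate, the 6 differences were 0.08 (Col4a1) to 0.25 (Pdgfc), with 0 at an unadjusted p under 0.05. Endothelial markers, 8 tested of 13 listed and 7 of them with a higher mean, summed to 20051 to 24595 in αChemR23 lungs and 19977 to 22226 in hIgG1 lungs, and with their score as a covariate the differences were 0.06 (Col4a1) to 0.33 (Pdgfc). B cell markers had a higher mean in 5 of 5 tested genes. Of these, 4 were at an unadjusted p under 0.05 and 0 at an adjusted one. Endothelial markers had 2 higher and macrophage markers 1 lower at such an unadjusted p. Of all tested genes, 57.4% had a higher mean, and 7.15% were higher and 2.74% lower at such a p. B cell sums were 314 to 677 in αChemR23 lungs and 262 to 378 in hIgG1 lungs. T cell markers had a lower mean in 8 of 8, with sums of 451 to 899 in αChemR23 lungs and 445 to 1339 in hIgG1 lungs. Sums also count listed genes too weak to test, Sele (endothelial) and Cd79a and Blk (B cell). Epithelial and carcinoma markers, 4 of 5 with a higher mean, summed to 5862 to 7335 in αChemR23 lungs and 5182 to 6362 in hIgG1 lungs. Macrophage markers, 8 of 13 with a higher mean, summed to 2938 to 3645 in αChemR23 lungs and 2772 to 3575 in hIgG1 lungs. The part of B cells, T cells, macrophages and epithelial cells in the differences of the 6 genes was not tested.

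The 6 genes were also compared with each other from lung to lung. Of 15 pairs, 1 passed an adjusted p of 0.05: Col1a1 and Col3a1 (Pearson r = 0.88, permutation p = 0.000500; Spearman rho = 0.86, permutation p = 0.00114). Adjusted over the 15 pairs these were 0.00750 and 0.0171. The r was 0.84 without αChemR23 mouse 14 and hIgG1 mouse 3, the 2 lungs farthest from the Col1a1 median. It was 0.87 within the αChemR23 lungs and 0.89 within the hIgG1 lungs, so that the 2 fibrillar collagens ran together in both groups.

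The next highest correlations were those of Col4a1 with Pdgfrb and Fn1, which did not pass after adjustment. With Pdgfrb, r was 0.74 (permutation p = 0.00968, adjusted p = 0.0663) and rho 0.75 (permutation p = 0.0116, adjusted p = 0.0868). Without αChemR23 mouse 14 and hIgG1 mouse 4 this r was 0.55. With Fn1, r was 0.70 (permutation p = 0.0133, adjusted p = 0.0663) and rho 0.63 (permutation p = 0.0428, adjusted p = 0.214). Without the same 2 lungs, the farthest from the Col4a1 median, r was 0.27. Leaving them out also narrows the range of Col4a1. This r was 0.61 without αChemR23 mouse 14 alone and 0.52 without hIgG1 mouse 4 alone. Within groups it was 0.50 in αChemR23 lungs and 0.95 in hIgG1 lungs. Some pairs passed in other settings: Col4a1 and Fn1 with quantile normalization (r = 0.80, adjusted permutation p = 0.0428) and without αChemR23 mouse 10 (r = 0.82, adjusted permutation p = 0.0158), Col4a1 and Pdgfrb without hIgG1 mouse 6 (r = 0.81, adjusted permutation p = 0.0316), and Col1a1 and Pdgfc without hIgG1 mouse 4 (r = 0.80, adjusted permutation p = 0.0175). Col3a1 and Col4a1, the genes whose upstream sequences are printed above, had r = 0.14 (permutation p = 0.672) and rho = -0.027 (permutation p = 0.947), and r was 0.18 without hIgG1 mice 3 and 6. The ligand Pdgfc had r = 0.13 with the receptor Pdgfrb (permutation p = 0.707; rho = 0.13, permutation p = 0.714), and r was -0.057 without αChemR23 mouse 14 and hIgG1 mouse 6. All values of a lung share 1 scaling factor, which adds a common part to each pair.

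**Figure D3:**
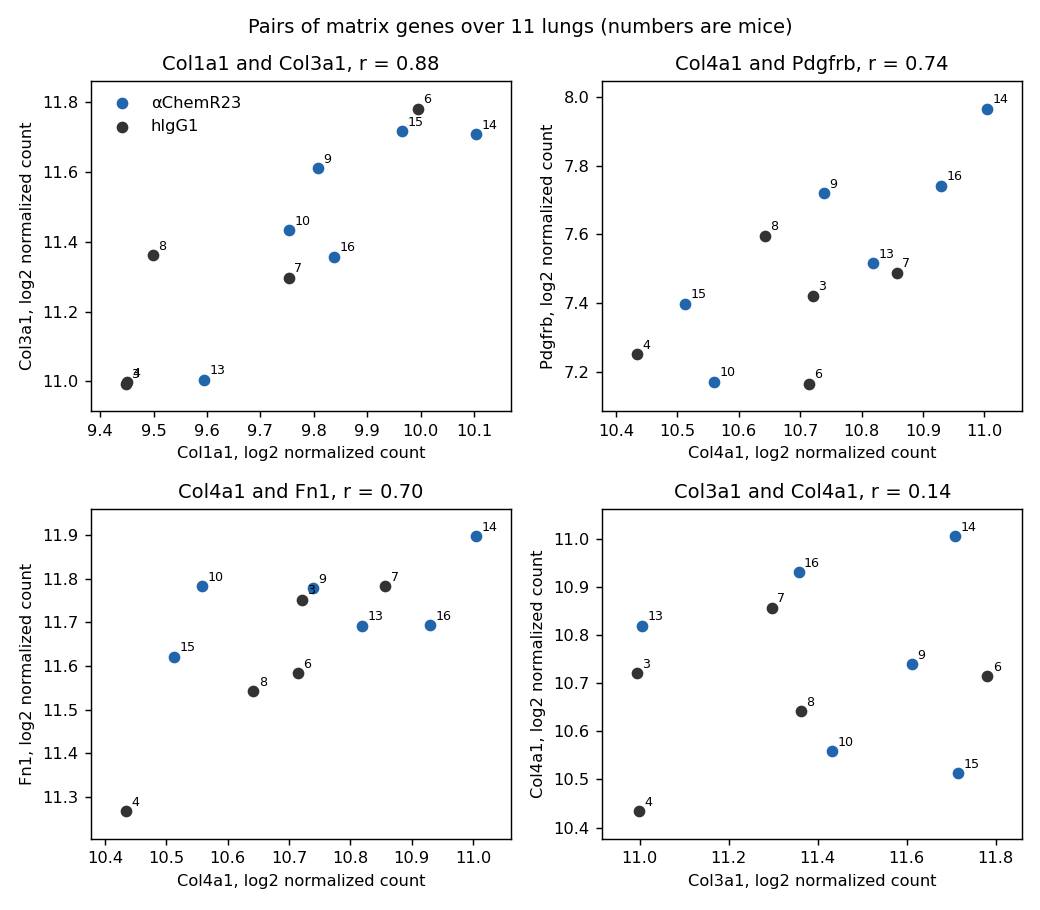
Log2 normalized counts of 2 genes per panel over 6 αChemR23 (blue) and 5 hIgG1 (black) lungs, with mouse numbers and Pearson r in the titles. Points of Col1a1 and Col3a1 (r = 0.88) run along a diagonal in both groups, while those of Col3a1 and Col4a1 (r = 0.14) scatter.

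Ratios within a lung do not depend on its scaling. The log2 ratio of the Col1a1 to the Col3a1 signal was -1.63 ± 0.15 in αChemR23 lungs and -1.66 ± 0.16 in hIgG1 lungs (SD, n = 6 and 5), a difference of 0.029. The ratio of Col3a1 to Col4a1, fibrillar to basement membrane collagen, spread more, at 0.71 ± 0.36 in αChemR23 lungs and 0.61 ± 0.30 in hIgG1 lungs (SD, n = 6 and 5). It ran from 0.19 to 1.20 in αChemR23 lungs and from 0.27 to 1.07 in hIgG1 lungs. That of the receptor Pdgfrb to the ligand Pdgfc was 1.64 ± 0.26 in αChemR23 lungs and 1.72 ± 0.45 in hIgG1 lungs (SD, n = 6 and 5). These ratios are between probe signals, not numbers of molecules, and are a description with no test.

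Of the genes around matrix and PDGF, those of the transforming growth factor beta (TGF-β) axis, which drives collagen synthesis in fibroblasts, had a higher mean in 8 of 9, with 3 at an unadjusted p under 0.05 and 0 at an adjusted one. Of all tested genes, 57.4% had a higher mean and 7.15% were higher at an unadjusted p under 0.05, a surplus over lower genes that turned with equal medians (22 higher against 35 lower). The 3 genes were the receptor Tgfbr2 (log2 difference 0.14, standard error 0.05), the signal mediator Smad4 (0.13, standard error 0.06) and the early response factor Egr1 (0.83, standard error 0.38). For Smad4 and Egr1 the groups overlapped. Smad4 ran from 9.53 to 9.68 in αChemR23 lungs and from 9.40 to 9.56 in hIgG1 lungs. Egr1 ran from 7.62 to 10.16 in αChemR23 lungs and from 7.47 to 8.89 in hIgG1 lungs. Tgfbr2 ran from 10.82 through 10.83 to 10.94 in αChemR23 lungs and from 10.62 through 10.70 to 10.81 in hIgG1 lungs. All αChemR23 lungs lay above all controls by a margin of 0.003, and groups did not overlap for 7 of all tested genes (1.07%). Whether this margin holds with other scalings was not tested. The ligand Tgfb2 had a log2 difference of 0.20 (standard error 0.12). The median of this list was 0.12, against 0.028 over all tested genes.

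Receptors of collagen and fibronectin were divided, with 3 of 6 higher and 3 lower, and 1, higher, at an unadjusted p under 0.05. Of all tested genes, 57.4% had a higher mean and 7.15% were higher at such a p. The 1 receptor gene was Itgb1, the beta 1 integrin chain that pairs with the collagen-binding alpha 1 and alpha 2 and the fibronectin-binding alpha 5 chains. Itgb1 was at 12.64 to 12.75 in αChemR23 lungs and 12.46 to 12.61 in hIgG1 lungs, again without overlap (log2 difference 0.14, standard error 0.05, adjusted p = 0.483 from limma). Groups did not overlap for 7 of all tested genes (1.07%). Its partners differed in sign: Itga1 had a log2 difference of 0.15 (standard error 0.08), Itga2, also carried by platelets, one of -0.29 (standard error 0.15) and Itga5 one of -0.27 (standard error 0.13). Platelet and megakaryocyte markers had a lower mean in 4 of 4 tested genes, with sums of 769 to 1281 normalized counts in αChemR23 lungs and 912 to 1295 in hIgG1 lungs, and their part in Itga2 was not tested.

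Among matrix proteases and their relatives, a higher mean was found for 5 of 7 tested genes. Before adjustment 3 had a p under 0.05, all higher, and after it 0, beside 57.4% and 7.15% of all tested genes with a higher mean and with a higher mean at such a p. They were cathepsin L (Ctsl, log2 difference 0.21, standard error 0.08), the urokinase Plau (0.28, standard error 0.12), which forms plasmin, and the mast cell chymase Cma1 (0.48, standard error 0.22). Cma1 was weak, at 4.40 to 5.30 log2 normalized counts in αChemR23 lungs and 3.90 to 4.88 in hIgG1 lungs. The lowest reported values of the hIgG1 lungs were close to this, at 3.38 to 3.87. Cathepsin S (Ctss) had a difference of 0.21 (standard error 0.10). The median of the list was 0.21. The only other matrix glycoprotein tested, Thbs1, which encodes thrombospondin-1, had a log2 difference of -0.09 (standard error 0.19).

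Other genes of fibroblasts and mural cells were divided in direction. Beside Pdgfrb, 8 were tested, of which 4 were higher and 4 lower on average, where 57.4% of all tested genes were higher, and 0 had a p under 0.05 before adjustment, and their median log2 difference was 0.025. The fibroblast chemokines Ccl11 and Cxcl12 had differences of 0.40 (standard error 0.24) and 0.13 (standard error 0.09). Eng, which encodes the TGF-β co-receptor endoglin, and Mcam, an adhesion molecule of pericytes and endothelium, had differences of -0.15 (standard error 0.08) and -0.11 (standard error 0.07). Eng was also counted among the endothelial markers. Thy1, with a log2 difference of -0.11, was at 131 to 218 normalized counts in αChemR23 lungs. In hIgG1 lungs it was at 116 to 179, except for 446 in mouse 8. That lung had the highest sum of T cell markers (1339), and the part of T cells in Thy1 was not tested. Fap, the activated fibroblast protease, was at 16.4 to 20.4 normalized counts in αChemR23 lungs and 14.6 to 17.9 in hIgG1 lungs. It was left out by the filter on weak genes. Its distance from the lowest value of the lung varied. In αChemR23 mice 9 and 15 it was at 16.4 and 17.8, against lowest values of 14.3 and 16.2. In αChemR23 mice 10 and 16 it was at 20.4 and 19.9, against 11.6 and 8.85. Of the 9 markers listed for fibroblasts and mural cells, only Pdgfrb, Col1a1, Col3a1 and Thy1 were tested, so that the identity of the cells that carry these transcripts rests mostly on the genes described here. The summed level of these genes and Fap was 3170 to 4891 normalized counts in αChemR23 lungs and 3031 to 4838 in hIgG1 lungs.

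**Figure D4:**
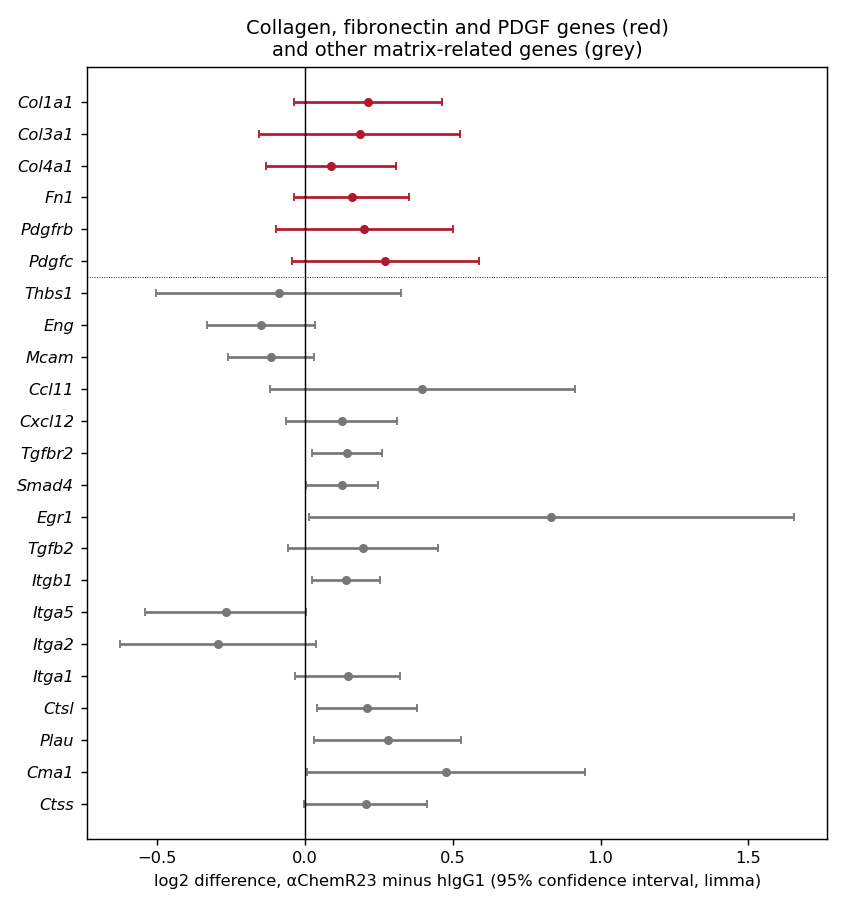
Log2 differences (horizontal axis, αChemR23 minus hIgG1) with 95% confidence intervals from limma for the 6 genes (red) and for 17 other genes named from lists of matrix, fibroblast, TGF-β, receptor and protease genes (grey), over 6 αChemR23 and 5 hIgG1 lungs. The 6 red points lie above 0 and their intervals include 0, and those of Tgfbr2, Smad4, Egr1, Itgb1, Ctsl, Plau and Cma1 lie above 0 before adjustment.

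Likeness of pattern was described as Pearson r over the 11 lungs of values minus their group mean, with 2 or 3 of the 3 most alike genes outside the 6 given for each. For Col1a1 these were the adaptor gene Sh2b2 (r = 0.89), Cd83, a marker of mature dendritic cells (0.87), and the chemokine Ccl19 (0.82). Cd83 was also close to Col3a1 (0.84), beside the lung chemokine Cxcl15 (0.85) and the adhesion molecule Icam1 (0.81). Nearest to Col4a1 were Cd99 (0.90), Map3k1 (0.86) and Mill2 (0.84), and to Fn1 the B cell transcription factor Pou2f2 (0.90), Cd180 (0.83) and Gpr183 (0.82). For Pdgfrb, Smad3 (0.88) and the B cell gene Ms4a1 (0.83) were among the 3 nearest. Pdgfc was nearest to Gusb (0.91), itself a housekeeping gene used in the scaling of these levels, and to Pvrl2 (0.86) and Alcam (0.85). These are the highest of 651 values each over 11 lungs that share their scaling, and are given with no test.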

How the data were processed

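Lung RNA of 11 mice (50 ng each) was counted on an nCounter Sprint. The authors normalized the counts in nSolver, with settings not given in the sources used here, and deposited log2 values of 770 genes, and they name DESeq2 for differential expression. The mean log2 value of 20 housekeeping genes was 9.01 in every lung. Low values under 60 normalized counts were whole multiples of 1 step per lung, within 0.1 of a count for 100% of them, from which raw counts were estimated. Of 770 symbols, 754 matched the RefSeq table of GRCm38.p6 as written, the 6 genes described among them.

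Since the deposited values are log2, the 657 genes whose mean reached 20 normalized counts were compared between αChemR23 and hIgG1 with limma 3.58.1 (R 4.3.3, trended eBayes after lmFit), with Benjamini-Hochberg adjustment and a threshold of 0.05. The 6 genes passed this filter. Pairs were tested by two-sided permutation (100000 resamples). Where no culture or animal beyond the mouse number is given, p-values measure the spread between these mice, and counting SDs cover counting error only. The 6 genes and all lists were chosen with earlier results of these data known. Named were the 6, up to 4 tested genes of each matrix-related list with the smallest p, and the 3 genes most alike to each of the 6, of which 1 is not reported here. The tests were checked on simulated data. Alternatives were other filters, pseudocounts, scalings, variance models, an exact Mann-Whitney test, voom on whole counts, covariates and leaving out each mouse.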

Additional observations from a re-analysis of the deposited data

Results flagged for a closer look

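Dixon's test for a single distant mouse was applied to 110 sets of values, each of 1 gene or score in 1 treatment group, and 3 passed its limit. About 1 in 20 sets pass by chance. None of the 3 was a set of the 6 genes. Plau, on the log2 scale, reached 7.68 in mouse 9 of the αChemR23 group, while its 5 companions ranged from 7.20 to 7.38. The mean log2 level of epithelial and carcinoma markers was 9.94 in αChemR23 mouse 15 and 9.61 to 9.71 in the others. That of platelet and megakaryocyte markers was 7.76 in hIgG1 mouse 4, the control with the lowest Fn1 and Col4a1, and 8.12 to 8.24 in the other hIgG1 mice.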

How the results depend on the processing

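All 6 differences stayed above 0 and none passed an adjusted p of 0.05 in the 12 other settings and the 11 fits without a mouse. With other filters, a robust variance model, the exact Mann-Whitney test and a common lowest value, the differences equalled those of the main fit. Their sign could not change in these settings, only their p. The differences in the 12 settings ran from 0.06 (Col4a1, endothelial covariate) to 0.33 (Pdgfc, same setting), and with a mouse left out from 0.03 (Col4a1, without hIgG1 mouse 4) to 0.37 (Pdgfc, without the same mouse). The 0 genes at an adjusted p under 0.05 by limma became 1 (Cdkn1a) with quantile normalization, 4 (Cdkn1a, Cx3cr1, Oas2 and Rrad) with the neutrophil covariate and 0 to 3 with a mouse left out (3 when αChemR23 mouse 10 was absent, Cdkn1a, Cx3cr1 and Rrad). Before adjustment, the 65 genes under 0.05 numbered 41 by exact Mann-Whitney tests (9 lower) and 39 to 80 with a mouse left out. The 47 higher and 18 lower genes became 22 and 35 with equal medians, 26 and 33 with quantile normalization, 26 and 30 with the endothelial covariate, and 25 to 57 higher and 10 to 35 lower with a mouse left out. These counts moved most without αChemR23 mouse 9 (39 in all, 25 higher), hIgG1 mouse 3 (43 in all, 27 higher), αChemR23 mouse 15 (11 lower), αChemR23 mouse 16 (35 lower) and hIgG1 mouse 7 (10 lower). With equal medians, r changed sign for Col4a1 and Pdgfc (0.096) and for Fn1 and Pdgfc (0.023), and on values minus group means for Pdgfrb and Pdgfc (-0.13). On values minus group means, r of Fn1 and Pdgfc kept its sign but moved from -0.20 to -0.64 (permutation p = 0.0386, adjusted permutation p = 0.145). With a mouse left out, r ran from -0.055 to 0.54 for Col1a1 and Pdgfrb, -0.12 to 0.33 for Col3a1 and Col4a1, -0.048 to 0.45 for Col3a1 and Fn1, -0.065 to 0.45 for Col3a1 and Pdgfrb, -0.30 to 0.11 for Col4a1 and Pdgfc, -0.39 to 0.080 for Fn1 and Pdgfc, -0.086 to 0.25 for Pdgfrb and Pdgfc, and 0.85 to 0.94 for Col1a1 and Col3a1. For the other settings the cause was not tested. Counting error limits Pdgfc most. No paired analysis was possible because no mouse number occurs in both groups.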
